A study of Mus musculus with 18 samples.

Results

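The genes described here are 9 members of the poly(ADP-ribose) polymerase (PARP) family, Parp1, Parp2, Parp3, Parp8, Parp9, Parp10, Parp11, Parp12 and Parp14, and Dtx3l, which codes for the ubiquitin ligase partner of the PARP9 protein. They were taken by gene symbol, and all 10 were found among the 27131 gene rows of the deposited table. Polyadenylated RNA had been sequenced from the colon of C57BL/6 mice that received no treatment. The labels give Hif2a +/+ for 9 libraries (WT) and an altered Hif2a allele for the other 9 (HIF2). The allele is written LFL in the sample labels and LSL in the design text, and the labels describe these mice as overexpressing HIF2, the hypoxia-inducible transcription factor HIF-2α, in the colon. The labels name no promoter or Cre line that drives it, and no age or sex of the mice. The comparison asks how the colon transcriptome differs between the genotypes. No source says that the 9 libraries of a group came from separate mice, so each p-value rests on the spread among these libraries, which may be technical.

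Active PARP enzymes take ADP-ribose from NAD and attach it to proteins and nucleic acids. PARP1, PARP2 and PARP3 are switched on by DNA breaks, and PARP1 and PARP2 build chains of ADP-ribose there that recruit repair factors. Most other active members add single ADP-ribose units, and Parp9, Parp10, Parp12, Parp14 and Dtx3l are known as interferon-stimulated genes, transcribed when cells sense interferon; the gut epithelium is a tissue in which such genes are active at rest.

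RefSeq promoter sequence (GRCm38.p6, the 250 bases before a transcript start) was at hand for 7 of the 10 genes, in 8 windows, because Parp11 has a pair of starts. The windows are shown because the members differ in how far they are known to follow interferon, and a binding motif for the interferon-activated factors can be looked for in their letters. Both strands were searched for the interferon-stimulated response element (ISRE) core, which is GAAA, any 2 bases and GAAA again, for the STAT core TTCNNNGAA, known as GAS, and for the hypoxia response core ACGTG or GCGTG. Of 32851 RefSeq promoter windows of this length, 2.98% held the first, 7.02% the second and 38.6% the third. The upstream Parp11 window held 1 ISRE core, which starts 44 bases before the transcript start, and a GAS core that overlaps it. None of the other 7 windows, those of Parp1, Parp2, Parp3, Parp8, Parp12, Dtx3l and the second Parp11 start, held either letter pattern. A hypoxia core was found in all 8 windows, from 1 match in Parp3, Parp12, Dtx3l and the upstream Parp11 window to 4 in the second Parp11 window. A match is a string of letters and not a measured binding site. The stretches of 4 windows that no exon of the annotation covers are printed 5′ to 3′ in the direction of transcription, with matches to the 3 patterns on either strand in capitals. They lie at chr6:127446590-127446839 (plus strand, Parp11), chr6:39118350-39118472 (minus strand, Parp12), chr16:35939207-35939277 (minus strand, Dtx3l) and chr1:180568641-180568890 (plus strand, Parp1), and the single Dtx3l hypoxia match lies in the part of its window that is not printed.
Parp11: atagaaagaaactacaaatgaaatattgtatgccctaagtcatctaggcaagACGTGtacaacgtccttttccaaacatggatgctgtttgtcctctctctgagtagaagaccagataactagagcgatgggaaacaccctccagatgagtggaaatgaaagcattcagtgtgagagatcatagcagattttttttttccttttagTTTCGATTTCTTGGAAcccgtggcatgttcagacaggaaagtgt
Parp12: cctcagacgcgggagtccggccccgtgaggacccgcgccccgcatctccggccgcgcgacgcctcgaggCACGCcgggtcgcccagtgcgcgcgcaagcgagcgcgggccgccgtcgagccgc
Dtx3l: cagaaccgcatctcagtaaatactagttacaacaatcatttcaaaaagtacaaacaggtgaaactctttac
Parp1: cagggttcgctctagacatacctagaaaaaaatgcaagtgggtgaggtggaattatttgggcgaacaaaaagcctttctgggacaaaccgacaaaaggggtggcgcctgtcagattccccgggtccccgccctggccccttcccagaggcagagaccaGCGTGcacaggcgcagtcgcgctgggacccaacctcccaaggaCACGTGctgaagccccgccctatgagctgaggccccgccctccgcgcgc

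Values are FPKM as deposited, fragment numbers scaled by transcript length and by library, so levels can be compared between genes per length. Their sum per library ran from 686539 to 937505, and the depth in reads is unknown. Changes are HIF2 minus WT differences of mean log2(FPKM + 1), which understate the change of low genes, and were tested with limma and Benjamini-Hochberg adjustment over the 13976 genes with a mean of at least 1 FPKM. At an adjusted p under 0.05, 11.1% of the tested genes were lower in HIF2 and 11% higher. The targeted gene, Epas1, averaged 18.8 ± 3.09 FPKM in the WT libraries and 22.7 ± 6.36 FPKM in the HIF2 libraries (SD, 9 in each), with 5 of 9 HIF2 libraries inside the WT range (log2 change 0.24 ± 0.14 SE, limma adjusted p = 0.246). Epas1 level alone therefore did not separate the labelled genotypes, and HIF2 stands throughout for the libraries so labelled. Among 24 known HIF target genes, 14 were higher and 1 was lower. The tissue markers also differed: 7 of 15 colon epithelium markers were lower and none higher (summed level 15880 to 23158 FPKM in WT, 11451 to 20015 in HIF2). That sum leans on Car1, which averaged 6884 FPKM in WT and 4715 in HIF2 and was not called (limma adjusted p = 0.0916). Of the general epithelial markers, named after their values were seen, Cdh1 was lower (log2 change -0.38, limma adjusted p = 0.0207). Epcam (-0.17, 0.272), Krt8 (0.04, 0.875), Krt18 (0.24, 0.277) and Krt19 (0.10, 0.724) were not called. Of 20 smooth muscle markers, 18 were higher (summed level 79.7 to 1542 FPKM in WT, 132 to 4578 in HIF2). In the fibroblast list 14 of 15 were higher (56.1 to 315 FPKM, against 163 to 1129), and in the macrophage list 9 of 10 (22.4 to 95.7 against 53.4 to 230). The lymphocyte markers summed to 26.2 to 56.3 FPKM in WT and 8.44 to 124 in HIF2, with 1 of 7 tested lower. Neutrophil markers summed to 0.391 to 4.38 FPKM in WT and 2.98 to 847 in HIF2, with Mpo and Elane at 0 in every library. None of the 4 tested was called in either direction. Their log2 mean stood 6.56 above the WT mean in HIF2 replicate 0 and 0.01 to 1.03 above it in the other HIF2 libraries.

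Of the 9 members that could be tested, 6 fell in HIF2, namely Parp9, Dtx3l, Parp14, Parp12, Parp10 and Parp11, and none rose, against the 11.1% of all tested genes that were lower. The median change of the 9 was -0.78 on the log2 scale, beside -0.02 over all tested genes. Parp1, Parp2 and Parp3 did not pass the test. Parp8 was too low for it at a mean of 0.972 FPKM over the 18 libraries. In bulk tissue, fewer cells that express a gene and less of its RNA per cell cannot be told apart.

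Parp9 codes for a macrodomain protein that has little activity by itself and works bound to the DTX3L ligase. In WT its level was 24.5 at the lowest, 34.0 at the median and 42.5 FPKM at the highest. In HIF2 the corresponding values were 8.72, 15.7 and 28.3 FPKM. Of the HIF2 libraries, 8 lay below every WT library, and the remaining one, HIF2 replicate 4, lay inside the WT range. The mean went from 33.9 ± 5.43 to 16.6 ± 6.15 FPKM (SD, n = 9 each), 50.9% lower, with a log2 change of -1.04 ± 0.18 (SE, limma adjusted p = 0.000462).

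Dtx3l, whose protein attaches ubiquitin and forms the complex with PARP9, ran from 32.8 through a median of 41.3 to 50.6 FPKM in WT. In HIF2 it ran from 8.15 through 20.5 to 36.5 FPKM. Again 8 of 9 HIF2 libraries were below the whole WT range, with replicate 4 inside it. The mean fell from 41.5 ± 6.54 to 20.3 ± 8.44 FPKM, 51.1% lower (log2 change -1.09 ± 0.20 SE, limma adjusted p = 0.000951).

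Parp14 codes for a large macrodomain protein that adds single ADP-ribose units and is known as a co-activator of STAT6. It had 33.4, 40.3 and 60.3 FPKM in the lowest, median and highest WT library. The HIF2 libraries had 8.06, 12.6 and 33.6 FPKM in the same order. The highest of them, replicate 4 at 33.6 FPKM, was just above the lowest WT library, replicate 3 at 33.4 FPKM, and the other 8 were all at or below 18.7 FPKM. Its mean was 44.4 ± 9.86 FPKM in WT and 15.7 ± 7.66 in HIF2, 64.6% lower. The log2 change of -1.52 ± 0.20 (SE, limma adjusted p = 7.98e-05) was the lowest of the 9 members, and by p-value Parp14 stood at place 91 among the 13976 genes.

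Parp12, a CCCH zinc finger enzyme with known antiviral activity, was the most abundant member per length in both genotypes. Its WT levels were 58.4, 78.9 and 89.5 FPKM at the lowest, median and highest. The HIF2 levels were 16.1, 40.1 and 61.9 FPKM. HIF2 replicate 4, at 61.9 FPKM, exceeded WT replicate 3, at 58.4 FPKM, and no other library crossed between the groups. The mean went from 78.4 ± 8.84 to 38.6 ± 12.2 FPKM, 50.8% lower (log2 change -1.07 ± 0.17 SE, limma adjusted p = 0.000323).

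Parp10 codes for another enzyme that adds single ADP-ribose units. Its level in WT was 11.8 at the lowest, 14.6 at the median and 18.1 FPKM at the highest. In HIF2 these values were 4.90, 8.40 and 10.6 FPKM. The groups did not overlap, which held for 1 of the 9 tested members. Over all tested genes, 1.27% had every HIF2 library below the WT minimum, and 0.758% had every one above the WT maximum, which no member did. The mean went from 14.4 ± 1.92 to 8.15 ± 2.09 FPKM, 43.5% lower (log2 change -0.78 ± 0.13 SE, limma adjusted p = 0.000379). The Parp10 gene shares 205 exon bases, 4.79% of its own, with its same-strand neighbour Plec, so reads from that stretch are uncertain.

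Parp11, which codes for an enzyme known to act on the turnover of the type I interferon receptor, was lower in level and overlapped more. WT libraries had 3.45, 5.43 and 7.25 FPKM at the lowest, median and highest. HIF2 libraries had 2.23, 3.41 and 4.31 FPKM. The WT range reached low through 1 library, replicate 4 at 3.45 FPKM, and the next WT value was 4.88 FPKM. Accordingly 5 HIF2 libraries lay below the WT range and 4 inside it. The mean fell from 5.64 ± 1.14 to 3.45 ± 0.772 FPKM, 38.8% lower, which is a log2 change of -0.58 ± 0.12 (SE, limma adjusted p = 0.0028).

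**Figure D1:**
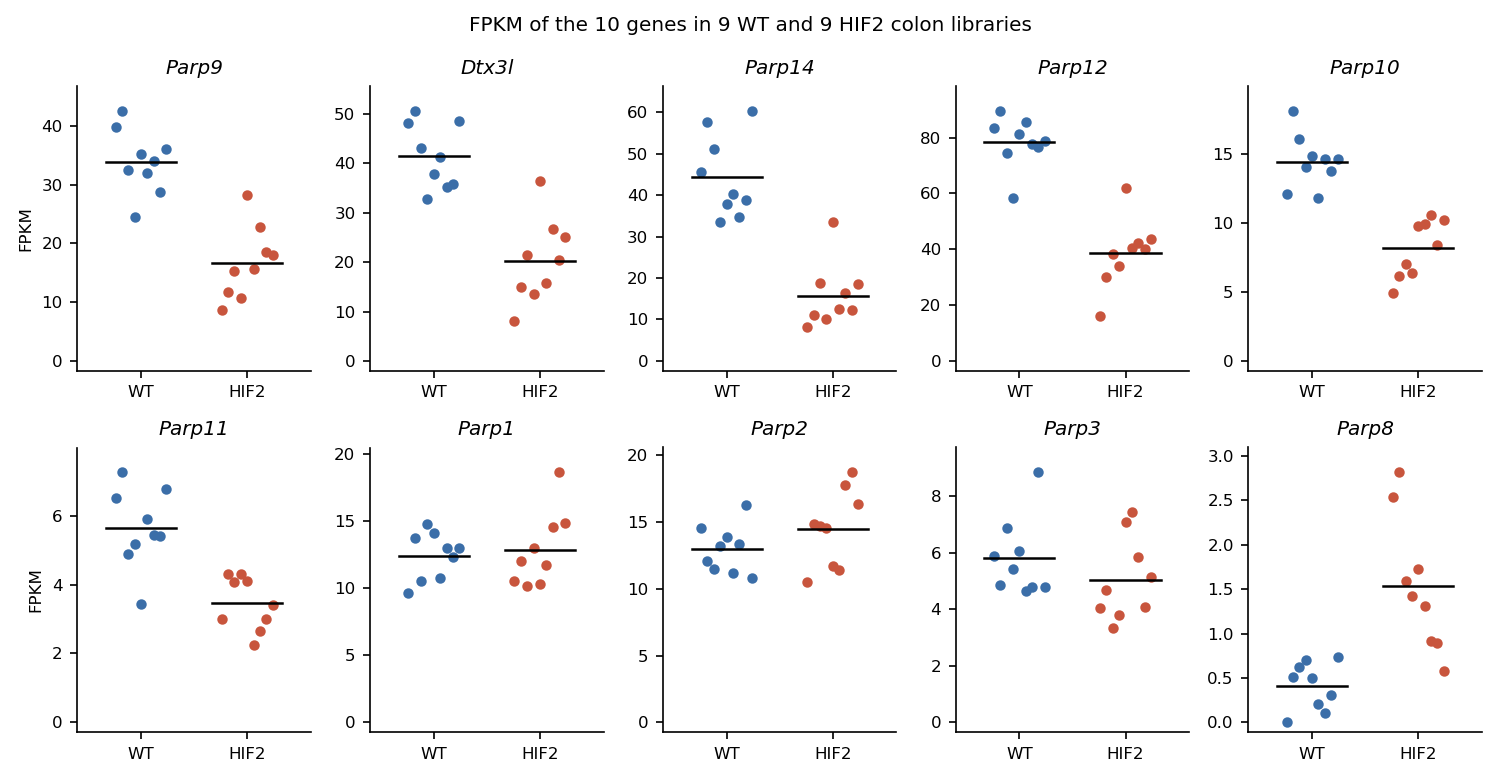
FPKM (vertical axes, each from 0) of each of the 10 genes in 9 WT and 9 HIF2 colon libraries; each point is a library in order of replicate number and the line is the group mean. Parp10 shows no overlap between the groups, while Parp9, Dtx3l, Parp14 and Parp12 overlap only through HIF2 replicate 4.

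None of the DNA break enzymes passed the test. Parp1, the main polymerase of the DNA damage response, had 9.65, 13.0 and 14.8 FPKM at the lowest, median and highest in WT, and 10.2, 12.0 and 18.6 FPKM in HIF2. Within the WT range lay 7 HIF2 libraries, and 2, replicates 7 and 8, lay above it. The log2 change was 0.03 with a 95% interval from -0.20 to 0.27 (limma adjusted p = 0.872).

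Parp2, the enzyme that shares much of the work of PARP1 in single-strand break repair, gave 10.8, 13.2 and 16.3 FPKM in WT and 10.5, 14.7 and 18.7 FPKM in HIF2. HIF2 replicates 6, 7 and 8 were above the WT range and 1 library was below it. The log2 change of 0.14 (95% interval -0.09 to 0.36) had a limma adjusted p of 0.417. Smooth muscle markers averaged -0.49 to 0.44 relative to the WT mean in those 3 libraries, and 2.90 to 3.74 in HIF2 replicates 0 to 5. In a fit of HIF2 replicates 6, 7 and 8 against 8 WT libraries without replicate 3, the change of Parp2 was 0.42 (limma adjusted p = 0.0252). That fit called 1196 genes higher and 1417 lower. Replicates 6, 7 and 8 had already been seen above the WT range, so this p-value is not independent support. With HIF2 replicates 0 to 5 against 9 WT libraries the change was -0.00603 (limma adjusted p = 0.973).

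Parp3, which acts at double-strand breaks, gave 4.63, 5.41 and 8.83 FPKM in WT and 3.34, 4.68 and 7.43 FPKM in HIF2. Below the WT range were 4 HIF2 libraries, and 5 were inside it. The log2 change was -0.18 (95% interval -0.47 to 0.11, limma adjusted p = 0.399). A miss of the threshold does not show that these 3 genes were equal between genotypes, and the interval of Parp3 overlaps that of Parp11, which runs from -0.84 to -0.32.

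Parp8, a little-studied member of the family, was the only gene of the 10 near the bottom of the measurable range. In WT it ran from a listed 0 through a median of 0.501 to 0.733 FPKM. In HIF2 it ran from 0.583 through 1.42 to 2.81 FPKM. Of the 9 HIF2 libraries, 8 lay above the highest WT library, and the highest values, 2.54 and 2.81 FPKM, were in HIF2 replicates 0 and 1. With the filter on low values removed, over 22774 genes of which 10.6% were higher in HIF2, Parp8 had a log2 change of 0.82 ± 0.16 (SE, limma adjusted p = 0.00272). The HIF2 libraries with the lowest Parp8, replicates 6, 7 and 8 at 0.917, 0.898 and 0.583 FPKM, were also those without raised smooth muscle markers, and the part of muscle or stromal RNA in this difference was not tested.

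**Figure D2:**
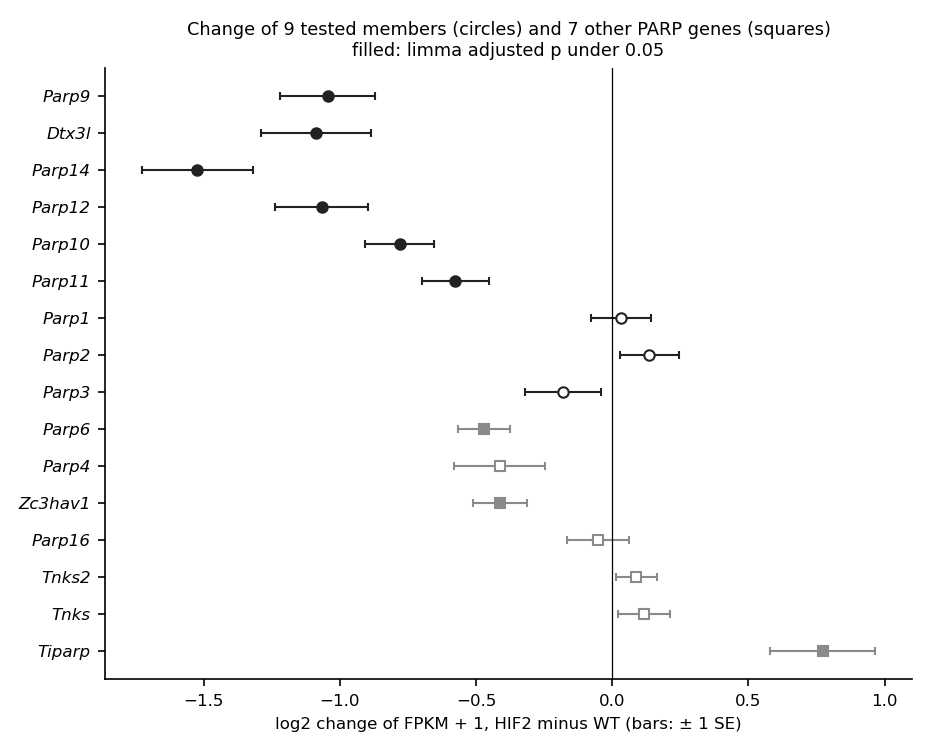
Change in mean log2(FPKM + 1), HIF2 minus WT (horizontal axis, bars ± 1 SE), for the 9 tested members (circles) and 7 other PARP genes (squares); filled symbols have a limma adjusted p under 0.05. Parp14 lies farthest to the left at -1.52 and Parp1 close to 0 at 0.03, and Tiparp is the only filled symbol on the right.

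The order of the members by level shifted with genotype. Per length, WT colon had Parp12 first, then Parp14, Dtx3l, Parp9, Parp10, Parp2, Parp1, Parp3, Parp11 and Parp8. Some neighbours in this order did not differ beyond their spread: Parp14 was above Dtx3l in 6 of 9 WT libraries, Parp2 above Parp1 in 5 and Parp3 above Parp11 in 4. Parp12 was above Parp14, Dtx3l above Parp9 and Parp9 above Parp10 in all 9. In HIF2 the order was Parp12, Dtx3l, Parp9, Parp14, Parp2, Parp1, Parp10, Parp3, Parp11 and Parp8. There Parp14 stood above Parp2 in only 4 of 9 libraries, and Parp1 was above Parp10 in all 9, where WT colon had Parp10 on the higher side.

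Parp9, Dtx3l and Parp14 lie next to each other on chromosome 16 in the GENCODE annotation of GRCm38. Parp14 spans chr16:35832874-35871544 on the minus strand, Dtx3l chr16:35926511-35939151 on the minus strand and Parp9 chr16:35938470-35972605 on the plus strand. Dtx3l and Parp9 start head to head and their spans overlap by 682 bases, while 54966 bases separate Parp14 from Dtx3l. The shared exon sequence comes to 458 bases, 9.4% of the Parp9 and 8.0% of the Dtx3l exon bases. The library kit named in the labels does not mark strand, so reads from those bases cannot be given to one gene or the other. Parp11 (chr6:127446840-127494261, plus strand) and Parp12 (chr6:39086410-39118349, minus strand) share a chromosome but lie far apart.

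**Figure D3:**
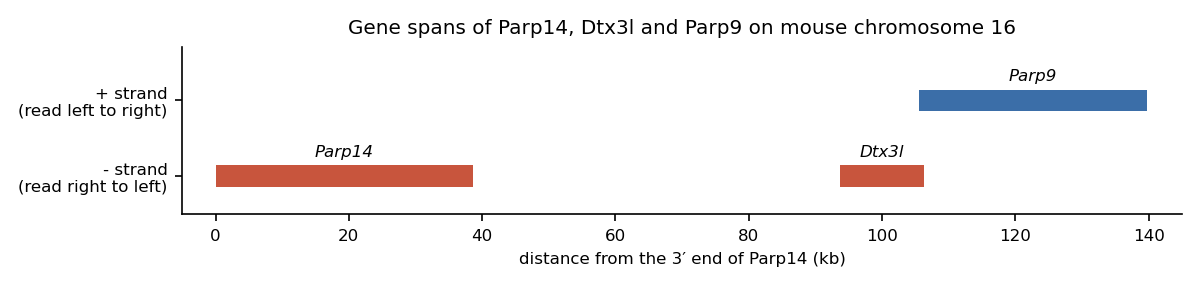
Annotated spans of Parp14, Dtx3l (lower, minus strand) and Parp9 (upper, plus strand) on mouse chromosome 16, with the distance in kilobases from the 3′ end of Parp14 on the horizontal axis. The Dtx3l and Parp9 bars overlap by 682 bases at their starts, and Parp14 is set apart from them.

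Within a library, the ratio of Parp9 to Dtx3l hardly moved. The log2 difference of Parp9 and Dtx3l averaged -0.28 in WT and -0.24 in HIF2, so that their changes differed by 0.04 (exact permutation test over every split of the 18 libraries, two-sided, p adjusted over 6 pairs = 0.589). Parp14 moved away from both neighbours. Its log2 difference to Dtx3l was 0.08 in WT (range -0.08 to 0.31) and -0.35 in HIF2 (range -0.69 to -0.01). The change of Parp14 minus that of Dtx3l was -0.44 on the log2 scale (exact permutation test, two-sided, adjusted p = 0.000987). Against Parp9 the difference of changes was -0.48 (exact permutation test, adjusted p = 0.00263). The change of Parp10 minus that of Parp14 was 0.74, Parp10 having fallen less (exact permutation test, adjusted p = 0.00263). Parp12 and Parp11 differed by -0.49 (exact permutation test, adjusted p = 0.0412), but that call was lost when any one of 9 libraries was left out, WT replicates 2, 4, 5, 6 and 7 and HIF2 replicates 0, 1, 2 and 3. Without HIF2 replicate 0 the difference was -0.37. Parp1 and Parp2 differed by -0.10 in their changes (exact permutation test, adjusted p = 0.401).

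Libraries of the same genotype also differed together in the 3 neighbouring genes. For Parp9 and Dtx3l, Pearson's r of log2(FPKM + 1) was 0.828 in WT (permutation p = 0.00383, adjusted 0.00766) and 0.954 in HIF2 (permutation p = 0.00017, adjusted 0.00272), over 9 libraries each. Spearman's rho for that pair was 0.80 in WT (permutation p = 0.0144, adjusted 0.0231) and 0.917 in HIF2 (permutation p = 0.00133, adjusted 0.00355). These tests used 100000 resamples, and p-values were adjusted over the 16 coefficients of 8 relations. Part of the shared sequence above enters both genes of this pair.
Parp14 and Dtx3l gave r = 0.913 and rho = 0.95 in WT (permutation p = 0.00126 and 0.00043, adjusted 0.00355 and 0.00344). In HIF2 the same pair gave r = 0.926 and rho = 0.917 (permutation p = 0.00074 and 0.00132, both adjusted 0.00355). Parp14 and Parp9 gave r = 0.657 and rho = 0.633 in WT (permutation p = 0.0541 and 0.0751, adjusted 0.0665 and 0.0859). In HIF2 they gave r = 0.872 and rho = 0.75 (permutation p = 0.00197 and 0.026, adjusted 0.0045 and 0.0378).
Leaving out the 2 libraries farthest from the median of the first gene lowered r for Parp9 and Dtx3l to 0.647 in WT and 0.891 in HIF2. For Parp14 and Dtx3l r became 0.853 and 0.866, and for Parp14 and Parp9 it became 0.50 and 0.659. The libraries left out in HIF2 were replicates 0 and 4 for each pair. None of these coefficients had an adjusted permutation p under 0.05 with 7 libraries, although those of Parp14 and Dtx3l in both groups and of Parp9 and Dtx3l in HIF2 stayed above 0.85.

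For the DNA break pair, Parp1 and Parp2, the levels had r = 0.0409 and rho = 0.0167 in WT (permutation p = 0.917 and 0.981, adjusted 0.978 and 0.981). In HIF2 they had r = 0.809 and rho = 0.733 (permutation p = 0.00784 and 0.0306, adjusted 0.0139 and 0.0408). Without HIF2 replicates 7 and 8 r was 0.691 (permutation p = 0.0931, adjusted 0.213). Whether the relation differed between the genotypes was not tested.

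**Figure D4:**
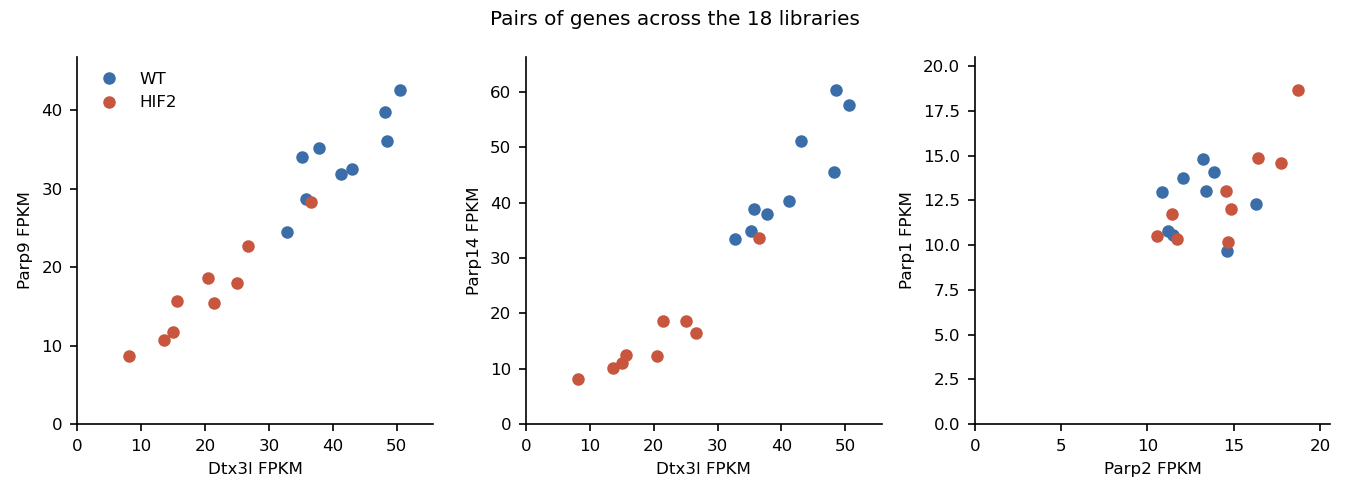
FPKM of Parp9 against Dtx3l, of Parp14 against Dtx3l and of Parp1 against Parp2, with each point 1 of 18 libraries, WT in blue and HIF2 in red, on linear axes from 0. Parp9 rises with Dtx3l in both groups, Parp14 is lower for its Dtx3l level in most HIF2 libraries, and the groups overlap in Parp1 and Parp2.

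The size of the fall varied among the HIF2 libraries. Averaged over the 6 lowered members and set against the WT mean, HIF2 replicate 0 was at -1.77 on the log2 scale and replicate 4 at -0.33. The other 7 HIF2 libraries were between -1.27 and -0.76. WT libraries spread from -0.27 in replicate 3 to 0.31 in replicate 1. Replicate 0 had the lowest value of its group in 5 of the 6 genes, and replicate 4 the highest in 4 of 6.
Other gene lists also had extremes in replicate 0 or 4. Replicate 2, with HIF target genes at 0.25, had the 6 genes at -0.91, and replicate 4, with HIF target genes at 0.15, had them at -0.33. A relation between these lists and the 6 genes across libraries was not tested. The mean of 29 interferon response genes, set against WT in the same way, reached -2.52 in HIF2 replicate 0 and -0.81 in replicate 4, with the rest between -2.12 and -1.59 and WT between -0.43 and 0.46. HIF target genes averaged 0.15 in replicate 4 and 0.25 in replicate 2, against 0.97 to 1.6 in the other 7. Lymphocyte markers averaged 0.92 in replicate 4 and -1.10 in replicate 0, where WT ran from -0.48 to 0.30. Epithelial markers averaged -1.01 in replicate 0, while its 8 companions ran from -0.45 to -0.22 and WT from -0.34 to 0.21, and neutrophil markers were 6.56 above the WT mean in replicate 0.
Without HIF2 replicate 0 the change of Parp14 was -1.43, and without replicate 4 it was -1.67, and in both fits, as in each of the 18 that left out a library, all 6 genes kept a limma adjusted p under 0.05.

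**Figure D5:**
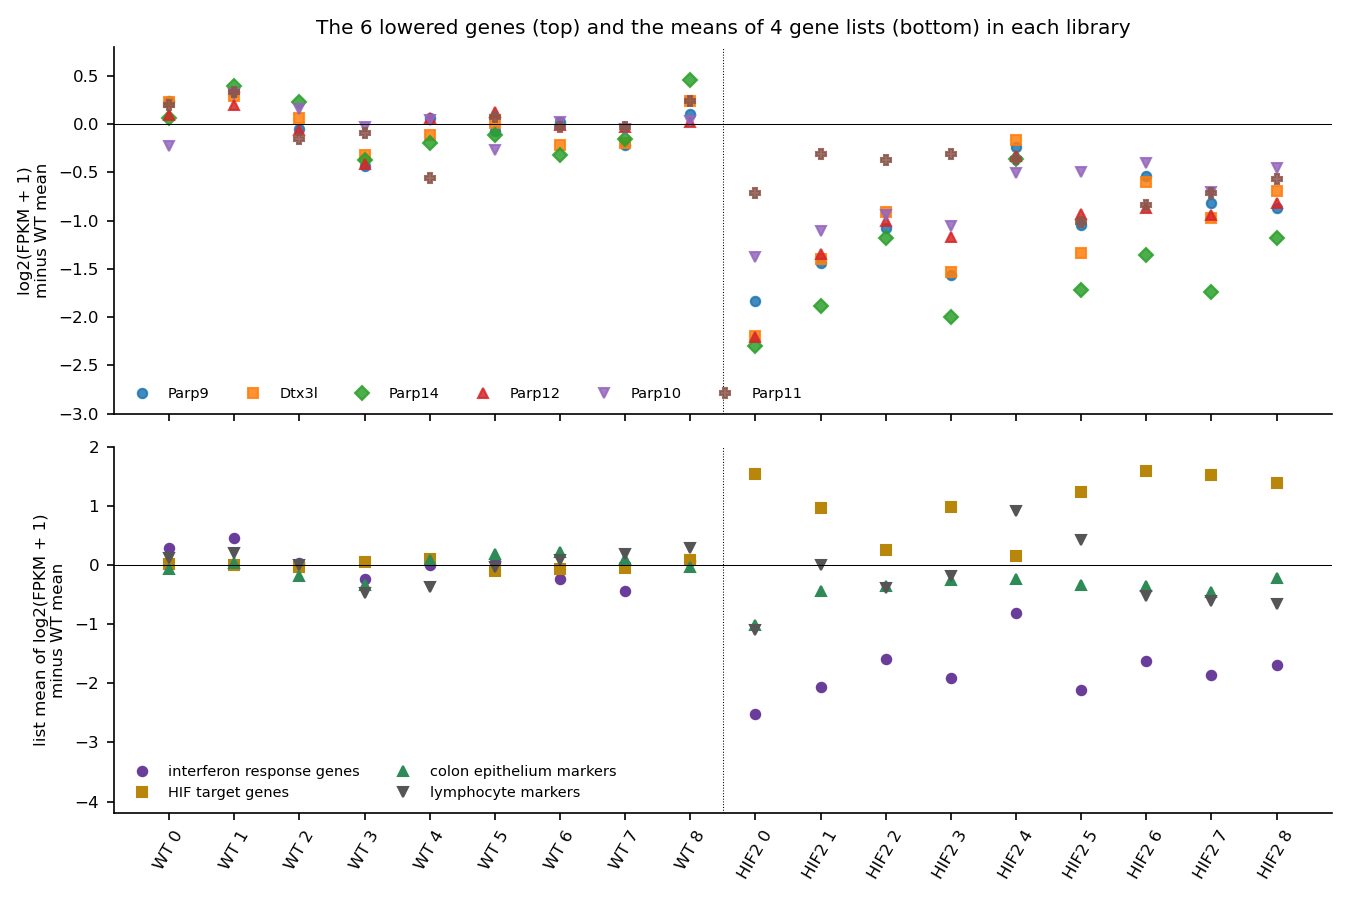
Top, log2(FPKM + 1) of the 6 lowered genes minus their WT means in each of 18 libraries; bottom, the same for the means of 4 gene lists. HIF2 replicate 0 has the lowest mean of the 6 genes, at -1.77, and is lowest in 5 of them. HIF2 replicate 4 has the mean nearest to WT, at -0.33, and is highest of its group in 4 of them.

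Some epithelial and most muscle markers differed between the groups, and fits with a marker mean as covariate gave the following. With the smooth muscle mean in the model all 6 genes kept their calls, from -1.41 for Parp14 to -0.59 for Parp10, the least firm being Dtx3l at -0.84 (limma adjusted p = 0.0367). With the epithelial mean in the model only Parp14 did, at -1.15 (limma adjusted p = 0.0194). The others were then at -0.64 for Parp9 (limma adjusted p = 0.0730), -0.60 for Dtx3l (0.125), -0.47 for Parp12 (0.0586), -0.54 for Parp10 (0.0547) and -0.50 for Parp11 (0.0823). That covariate also cut the genes called lower from 1557 to 564. Among the HIF target genes it removed the higher calls of Adm, Ndrg1, P4ha2, Lox, Loxl2, Slc11a2, Cybrd1, Slc40a1 and Ero1l. The lower call of Car12 was lost too (limma adjusted p = 0.0722), while Pdk1 became a higher call (0.89, limma adjusted p = 0.0418). Egln3, Ankrd37, Bnip3, P4ha1 and Kdm3a kept their higher calls. In HIF2 replicates 6, 7 and 8, where muscle markers were close to WT, against 8 WT libraries without replicate 3, all 6 genes were again lower, from -1.47 for Parp14 to -0.52 for Parp10. This subset was not matched for epithelium. Epithelial markers averaged -0.45 to -0.22 in those HIF2 libraries and -0.18 to 0.21 in those WT libraries. Fibroblast and macrophage markers lay above those WT libraries in HIF2 replicates 6 and 7, and inside their range in replicate 8. The epithelial mean takes in markers that fell and markers that did not. The amount of epithelium and expression within it therefore cannot be told apart in that mean. Whether the epithelial share was smaller, and its part in these falls, was not tested.

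The rest of the PARP family did not move as a block. Of 7 other members tested, 1 rose and 2 fell, beside the 22.1% of all genes called in either direction, and their median change was -0.05. Tiparp, a target of the aryl hydrocarbon receptor also called PARP7, rose from 11.4 ± 1.65 to 21.9 ± 12.2 FPKM (log2 change 0.77 ± 0.19 SE, limma adjusted p = 0.00744). Above its WT range were 7 of 9 HIF2 libraries, the highest being replicate 0 at 53.1 FPKM. Parp6 fell from 14.5 ± 1.53 to 10.2 ± 1.77 FPKM, with all 9 HIF2 libraries below the WT minimum (log2 change -0.47 ± 0.10 SE, limma adjusted p = 0.00199). Zc3hav1, the antiviral zinc finger protein also called PARP13, fell from 38.1 ± 2.63 to 28.8 ± 5.91 FPKM (log2 change -0.41, limma adjusted p = 0.00571). The tankyrase gene Tnks changed by 0.12 (limma adjusted p = 0.44) and did not pass. The Tiparp call was lost with the epithelial covariate (0.29, adjusted p = 0.433), the Zc3hav1 call with the muscle covariate (-0.31, adjusted p = 0.116) and the Parp6 call with either (adjusted p = 0.182 and 0.0541).

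The genes that read, remove or support ADP-ribosylation gave few calls. None of 13 tested hydrolases, readers and PARP cofactors passed the limma test in either direction, and 3 of 13 had an unadjusted p under 0.05, as did 33.7% of all tested genes. Nudt5, which breaks down free ADP-ribose, was the nearest at 10.7 ± 1.41 and 12.9 ± 1.96 FPKM (log2 change 0.25, limma adjusted p = 0.0585). The ADP-ribose hydrolases Macrod2 and Macrod1 changed by 0.32 (limma adjusted p = 0.0943) and -0.24 (0.497), and the ADP-ribose-binding ubiquitin ligase gene Chfr by -0.17 (0.143). Of 19 single-strand break and base excision repair genes, 1 rose and 1 fell. The sliding clamp gene Pcna went from 81.9 ± 14.9 to 123 ± 49.5 FPKM (0.52, limma adjusted p = 0.0485), and the uracil glycosylase gene Ung from 5.23 ± 1.59 to 3.39 ± 1.01 (-0.50, limma adjusted p = 0.0225). The Pcna call was lost in 11 of 18 fits that left out 1 library, with adjusted p up to 0.0915, and the Ung call with the muscle covariate (-0.42, adjusted p = 0.173), with the epithelial covariate (-0.55, adjusted p = 0.119) and in HIF2 replicates 6, 7 and 8 (-0.09, adjusted p = 0.69). Lig3 and Ogg1, a ligase and a glycosylase of the same pathways, did not pass, at -0.22 (limma adjusted p = 0.086) and 0.31 (0.178).

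NAD, the substrate of the active PARP enzymes, is made and used by 13 tested genes of a fixed list, of which 1 rose and 1 fell. Nampt, the rate-limiting enzyme of NAD salvage, fell from 39.2 ± 4.17 to 25.1 ± 2.83 FPKM, with all 9 HIF2 libraries below the lowest WT library (log2 change -0.62 ± 0.08 SE, limma adjusted p = 3.09e-05). Its call held under all 33 alternatives, between -0.71 and -0.46. Nnmt, which methylates nicotinamide, had 0.415 ± 0.648 and 2.02 ± 1.62 FPKM (log2 change 0.98, limma adjusted p = 0.0427), a call lost in 11 of 18 fits that left out 1 library, with adjusted p up to 0.0827. With the muscle covariate its change was 0.23 (adjusted p = 0.719), and with pseudocounts of 0.1 and 0.01 it was 2.19 and 3.33 (adjusted p = 0.0823 and 0.134). Nmnat1 and Bst1 did not pass, at -0.41 (limma adjusted p = 0.0844) and 0.30 (0.495). In the Deltex family to which Dtx3l belongs, none of 3 other tested genes passed, at 0.54 for Dtx3 (limma adjusted p = 0.13), 0.19 for Dtx4 (0.392) and 0.05 for Dtx2 (0.874). An unadjusted limma p under 0.05 was found for 1 of these 3, beside 33.7% of all tested genes.

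Of 15 receptor, kinase and transcription factor genes of the interferon pathway, 7 were called lower and 1 higher, with a median change of -0.21. With the epithelial covariate 3 of these remained lower. The calls lost there were those of Irf1 (-0.02, limma adjusted p = 0.963), Irf2 (-0.76, 0.0926), Irf9 (-0.54, 0.0937) and Jak2 (-0.23, 0.0991), named after their values were seen, and Irf2 was lost in 21 of 33 alternatives. Irf7, a transcription factor that amplifies the interferon response, fell from 171 ± 26.3 to 43.0 ± 23.0 FPKM with no overlap (log2 change -2.12 ± 0.24 SE, limma adjusted p = 1.29e-05). Stat2 fell from 12.2 ± 4.0 to 4.67 ± 2.16 FPKM (-1.24, limma adjusted p = 0.000379). The receptor gene Ifnar2 rose from 3.71 ± 1.08 to 7.94 ± 3.44 FPKM (0.88, limma adjusted p = 0.00228), though not with either covariate (adjusted p = 0.102 and 0.212). The interferon gamma receptor gene Ifngr1 changed by 0.17 (limma adjusted p = 0.457). Among 29 interferon response genes outside the members, 28 fell and none rose, with a median of -1.79. Samd9l was the exception at -0.10 (limma adjusted p = 0.747), named after its value was seen. With the epithelial covariate the calls of Mx1 (-0.76, limma adjusted p = 0.0560) and Eif2ak2 (-0.42, 0.0828) were lost. The other lower calls of this list remained. Oas3, which makes the 2′-5′-linked oligoadenylate signal of viral infection, fell from 31.5 ± 8.68 to 3.43 ± 3.58 FPKM (-3.10, limma adjusted p = 2.41e-06). Rsad2, the antiviral protein viperin, changed by -2.08, Herc6 by -2.06 and the ISG15-conjugating enzyme gene Ube2l6 by -1.34. These lists were drawn up with earlier results of the same libraries known, so their counts are not independent evidence of direction. The 6 lowered members thus lay at smaller changes than this list's median, from -1.52 to -0.58.

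Across the 18 libraries, after removing the group means, the genes whose levels followed each member most closely were named by a fixed rule, with Pearson's r over 18 libraries as a description. For Parp9 these were Ifih1 (0.95), Eif2ak2 (0.931) and Irgm1 (0.918), and for Dtx3l Ifih1 (0.962), Irgm1 (0.959) and Oas1a (0.93). Those of Parp14 were Gm5431 (0.942), Irgm1 (0.917) and Irgm2 (0.915), and those of Parp12 were Oas1a (0.938), Psme2 (0.931) and Vipr1 (0.923). Parp10 was followed by Pex26 (0.886), Tapbpl (0.871) and Pde4dip (0.866). The likeness of Parp11 was lower, to Fam40b (0.813), Dcbld2 (0.813) and Spop (0.81). Among Parp9, Dtx3l, Parp14, Parp12 and Parp10 the 10 pairs had r from 0.62 to 0.933. Parp11, although it fell too, had r from -0.25 to 0.33 with those 5 genes. Parp1, Parp2 and Parp3 had r from -0.18 to 0.49 with them in 15 pairs. Among the nearest genes to Parp1 were Spcs2 (0.842) and Mad1l1 (0.835), among those to Parp2 were Pdia4 (0.865) and Ppil4 (0.857), and those to Parp3 were Hsdl1 (0.828), Prkaca (0.787) and 1700112M01Rik (0.746). All these coefficients share the same 18 libraries and their tissue makeup.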

How the data were processed

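Polyadenylated RNA of mouse colon tissue was sequenced in 9 WT and 9 HIF2 libraries. The authors deposited 1 table of FPKM per gene and library, and per the submitters' processing notes FastQC, Bowtie2 2.1.0.0, TopHat2 2.0.9, Cufflinks, Cuffdiff 2.1.1 and the mm10 build were used, with no roles given. The reads behind the FPKM are not given, so depth is unknown and no count model was fitted. All libraries were compared after log2(FPKM + 1) with limma 3.58.1 in R 4.3.3 (trended prior), on genes whose FPKM averaged 1 or more across the libraries, without a replicate block. P-values were adjusted by the Benjamini-Hochberg method over 13976 genes, and calls used an adjusted p under 0.05. On simulated data with 200 changed genes among 13976, the fit recovered 92% of 2-fold and 98% of 4-fold changes. Differences between pairs of members used exact permutation tests over every split of the libraries. Promoters were taken from RefSeq (GRCm38.p6) and gene spans from GENCODE (GRCm38). Alternatives were another pseudocount, filter, scaling, prior, weights, rank test, block, marker covariate, library subset or library left out. Named genes were all members, up to 4 genes of smallest p per list in an even share of directions, the 3 tested genes nearest to each member, and Epas1; a few genes that this rule names are not reported here. The members and lists were chosen with earlier results of these data known.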

Additional observations from a re-analysis of the deposited data

Results flagged for a closer look

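Parp12 had 58.4 FPKM in WT replicate 3, the lowest of its group. On the log2(FPKM + 1) scale it was set apart from the next WT library by 57% of the group's whole range. It was the only such gap in 20 groups of 9 libraries examined (10 genes in each genotype), and chance gives about 1 in 20. The same library had the lowest value of its group in 4 of the 6 lowered genes, and its smooth muscle markers averaged 2.46 above the WT mean on the log2 scale. Without it Parp12 kept its call.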

How the results depend on the processing

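The 6 falls kept their direction in every alternative, and their calls except with the epithelial covariate, where 1 remained; Parp11 was not tested with the filter at 5 FPKM. Over all tested genes, 1531 higher and 1557 lower calls became 640 higher with a filter at 5 FPKM and 2407 higher without a filter, which moved the share of higher calls from 49.6% to 33.8% and 60.8%. The smooth muscle covariate gave 974 and 1034, and the epithelial covariate 550 and 564. Members higher numbered 0, but 1 with no filter (Parp8), 1 in HIF2 replicates 0 to 5 (Parp8), 1 in HIF2 replicates 6 to 8 (Parp2) and 0 to 1 when each library was left out. Where the filter was kept, Parp8 entered a fit only through its HIF2 values, since no WT library exceeded 0.733 FPKM. Its higher calls in those fits are therefore no support for a rise. The Parp2 call rests on libraries already seen above the WT range. The small change of Parp1 turned to -0.00247 with TPM scaling and -0.12 in HIF2 replicates 0 to 5, and ran from -0.0321 to 0.0699 when each library was left out. Parp2 turned to -0.00603 in HIF2 replicates 0 to 5, and the difference between Parp9 and Dtx3l to -0.00146 in HIF2 replicates 6 to 8. The difference between Parp12 and Parp11 missed the threshold at -0.39 and -0.38 with pseudocounts 0.1 and 0.01, -0.38 after quantile normalization and -0.21 in HIF2 replicates 6 to 8, and ran from -0.56 to -0.37 when each library was left out. The causes were not tested. Without the 2 farthest libraries r no longer passed for Parp9 and Dtx3l (0.647 and 0.891), Parp14 and Dtx3l (0.853 and 0.866), Parp14 and Parp9 in HIF2 (0.659) and Parp1 and Parp2 in HIF2 (0.691), with 7 libraries left. With the replicate number as a block, 1355 genes were higher and 1345 lower, and the same counts of members, 0 and 6, were called. Libraries of the same number did not deviate together (r from -0.03 to 0.11, 1 of 9 over 0.1, and 0 of 9 closest to their own number). The values thus gave no sign of pairing by number, although such a comparison cannot exclude it. The depth behind the FPKM is unknown, and Parp8, at a mean of 0.972 FPKM, was under the filter.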
